A study of Homo sapiens with 4 samples.

Results

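The genes described here are 38 genes of the integrated stress response and of amino acid supply, picked by symbol from the 26348 genes of a deposited expression table. They comprise 11 stress factors, 5 amino acid transporters, 8 amino acid enzymes, 12 cytosolic tRNA synthetases and 2 eIF2 kinases, and all 38 were found and tested. RNA had been sequenced from A549, a line derived from a non-small cell lung cancer, and from 293T, a line of human renal epithelial origin. The 4 groups were A549 cells kept for 2 h in a magnetic field (exposed A549), A549 cells without a field (A549 controls), and 293T cells treated in the same 2 ways. Each group had 3 libraries. How strong the field was, its frequency and its source are not given in the sources used here. Each cell type is represented by 1 established line. Since no label says whether separate cultures were used for the 3 libraries of a group, the p-values cover the spread among libraries, which may be of technical origin. In such bulk RNA, a change in the RNA per cell and a change in the share of cells that make it cannot be told apart.

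In the integrated stress response, kinases that sense amino acid shortage, misfolded protein in the endoplasmic reticulum, heme shortage or viral RNA phosphorylate the initiation factor eIF2. Most translation then slows, while the mRNA of the transcription factor ATF4 is translated more, and ATF4 with partners of the C/EBP family turns on genes that import amino acids, make them and load them onto tRNA. Prolonged signalling induces the factor CHOP, and a phosphatase subunit, GADD34, reverses the phosphorylation. An mRNA level is therefore at most a reading of the output of the pathway. It does not report the phosphorylation of eIF2 or the translation of ATF4, neither of which was measured. Whether the changes below came from this pathway was not tested.

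ATF4 and its C/EBP partners bind a composite element with the letters TGATGNAA, and this motif was looked up on both strands of the RefSeq promoter windows (GRCh38.p14), which run from 250 bases before to 50 bases after each annotated start. At least 1 window was listed for 31 of the 38 genes, and 13 of these 31 genes (41.9%) held the motif in a window, against 280 of 10292 protein-coding genes tested (2.72%). Counted by window, since a gene can have several starts, it was in 13 of 49 windows (26.5%), against 300 of 15131 (1.98%). By role it was present in 7 of 10 synthetase genes, 3 of 5 transporter genes, 1 of 5 enzyme genes and 2 of 10 stress factor genes with a window. The 38 genes were picked as genes of this response and of amino acid supply, so these shares are not independent of that choice. The motif matches below are from 6 genes whose transcripts rose in both lines and from 2 synthetase genes that passed the test in neither, so that the sites can be set beside the responses. Each is written 5′ to 3′ on the strand that carries the motif, with the motif in capitals; the coordinates are chr15:40953251-40953280 on the minus strand for CHAC1, chr19:33374060-33374089 on the plus strand for CEBPG, chr11:62881725-62881748 on the minus strand for SLC3A2, chr7:97872458-97872487 on the minus strand for ASNS, chr16:70289675-70289704 on the plus strand for AARS1, chr5:33440956-33440985 on the minus strand for TARS1, chr11:3057407-3057436 on the plus strand for CARS1 and chr7:30594834-30594863 on the minus strand for GARS1.
CHAC1: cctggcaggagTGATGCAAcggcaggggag
CEBPG: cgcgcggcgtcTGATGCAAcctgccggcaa
SLC3A2: ggagcTGATGTAAggagtcctgca
ASNS: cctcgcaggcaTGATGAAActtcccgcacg
AARS1: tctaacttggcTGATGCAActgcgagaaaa
TARS1: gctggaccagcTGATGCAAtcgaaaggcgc
CARS1: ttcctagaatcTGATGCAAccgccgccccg
GARS1: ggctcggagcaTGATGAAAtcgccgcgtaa

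CHAC1 had the largest fold change of the 38 genes in A549, and the 250 bases before its start (chr15:40953221-40953470, plus strand) are given with the motif in capitals, here read on the opposite strand.
CHAC1 promoter: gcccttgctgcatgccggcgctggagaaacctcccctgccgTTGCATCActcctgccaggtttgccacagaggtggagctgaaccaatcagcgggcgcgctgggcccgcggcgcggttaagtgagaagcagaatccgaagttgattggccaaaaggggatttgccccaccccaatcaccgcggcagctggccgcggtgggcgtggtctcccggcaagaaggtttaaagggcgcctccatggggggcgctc

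The 12 libraries held 37171616 to 38883963 recovered counts each, the highest 1.046 times the lowest. Mitochondrially encoded transcripts took 7.69% to 7.96% of the counts in exposed A549 libraries, against 8.35% to 9.28% in A549 controls, and 4.37% to 4.45% in exposed 293T libraries, against 4.85% to 5.21% in 293T controls. The line labels matched part of the markers. A549 controls had 604 ± 10.7 FPKM of keratin KRT7 and 764 ± 21.5 FPKM of AKR1B10, against 0.642 ± 0.0663 and 0.898 ± 0.232 FPKM in 293T controls (SD, n = 3), but the lung factor NKX2-1 ran the other way, with 0.0108 FPKM in A549 controls against 0.947 FPKM in 293T controls, and SFTPC was listed at 0 in both. Of the kidney factors, PAX2 averaged 0.170 FPKM in A549 controls and 0.587 FPKM in 293T controls, while PAX8 was higher in A549 controls, at 0.233 FPKM against 0.00855 FPKM in 293T controls. Of 4 markers of other cell types, PTPRC, PECAM1 and ALB were at or near 0 in all libraries; COL1A1 rose by 0.48 on the log2 scale in exposed A549 cells, and the 4 summed to 2.01 to 3.33 FPKM in exposed A549 libraries against 1.61 to 1.87 FPKM in A549 controls, and to 1.96 to 2.03 FPKM in exposed 293T libraries against 2.22 to 2.46 FPKM in 293T controls. Its part in the results was not tested.

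Exposure went with higher levels of part of this programme, in A549 and in 293T alike. In A549, 14 of the 38 genes were higher in exposed cells, 3 were lower and 21 did not pass the limma test at an adjusted p of 0.05. In 293T, 23 were higher, 3 were lower and 12 did not pass. Over all 13811 genes tested, the share higher in exposed cells was 13.3% in A549 and the share lower 26.9% (40.2% in either direction), and in 293T these shares were 13.7% and 24.2% (38% in either direction). The higher share among the 38 genes, 36.8% in A549 and 60.5% in 293T, was thus above that of all genes in each line. The lower share, 7.89% in both, was below that of all genes. These genes and the further lists below were chosen with earlier results of the data known, so such shares are descriptions and not tests. The median log2 fold change of the 38 genes was 0.08 in A549 and 0.18 in 293T, beside -0.04 and -0.03 over all genes. CHAC1, NUPR1 and ASNS entered the test through their exposed libraries, since fewer than 3 control libraries of each reached the minimum of 0.5 FPKM; without these 3 genes, 11 of 35 were higher in A549 and 21 of 35 in 293T.

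The 12 genes that were higher in both lines were ATF4, DDIT3, CEBPB, CEBPG, CHAC1, SLC3A2, SLC38A2, ASNS, PSPH, MTHFD2, AARS1 and TARS1. They made up 85.7% of the A549 rises and 52.2% of the 293T rises. ATF5 and EIF2AK4 were lower in both lines. The 9 genes that passed in neither line were PPP1R15A, SLC7A5, SLC1A5, CARS1, EPRS1, GARS1, LARS1, WARS1 and EIF2AK1. In 17 of the 38 genes every exposed A549 library lay above every A549 control, where 17.1% of all genes did so. In 24 of the 38 every exposed 293T library lay above every 293T control, where 19.1% of all genes did so. Both counts include CHAC1, NUPR1 and ASNS, which entered the test through their exposed libraries. When each library was centred on its own median, the A549 split of the 38 genes became 16 higher and 1 lower. The same centring turned the A549 split over all genes, 1837 higher and 3711 lower, into 2695 higher and 2525 lower, and quantile normalization turned the 293T split, 1897 higher and 3346 lower, into 2403 higher and 2620 lower.

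**Figure D1:**
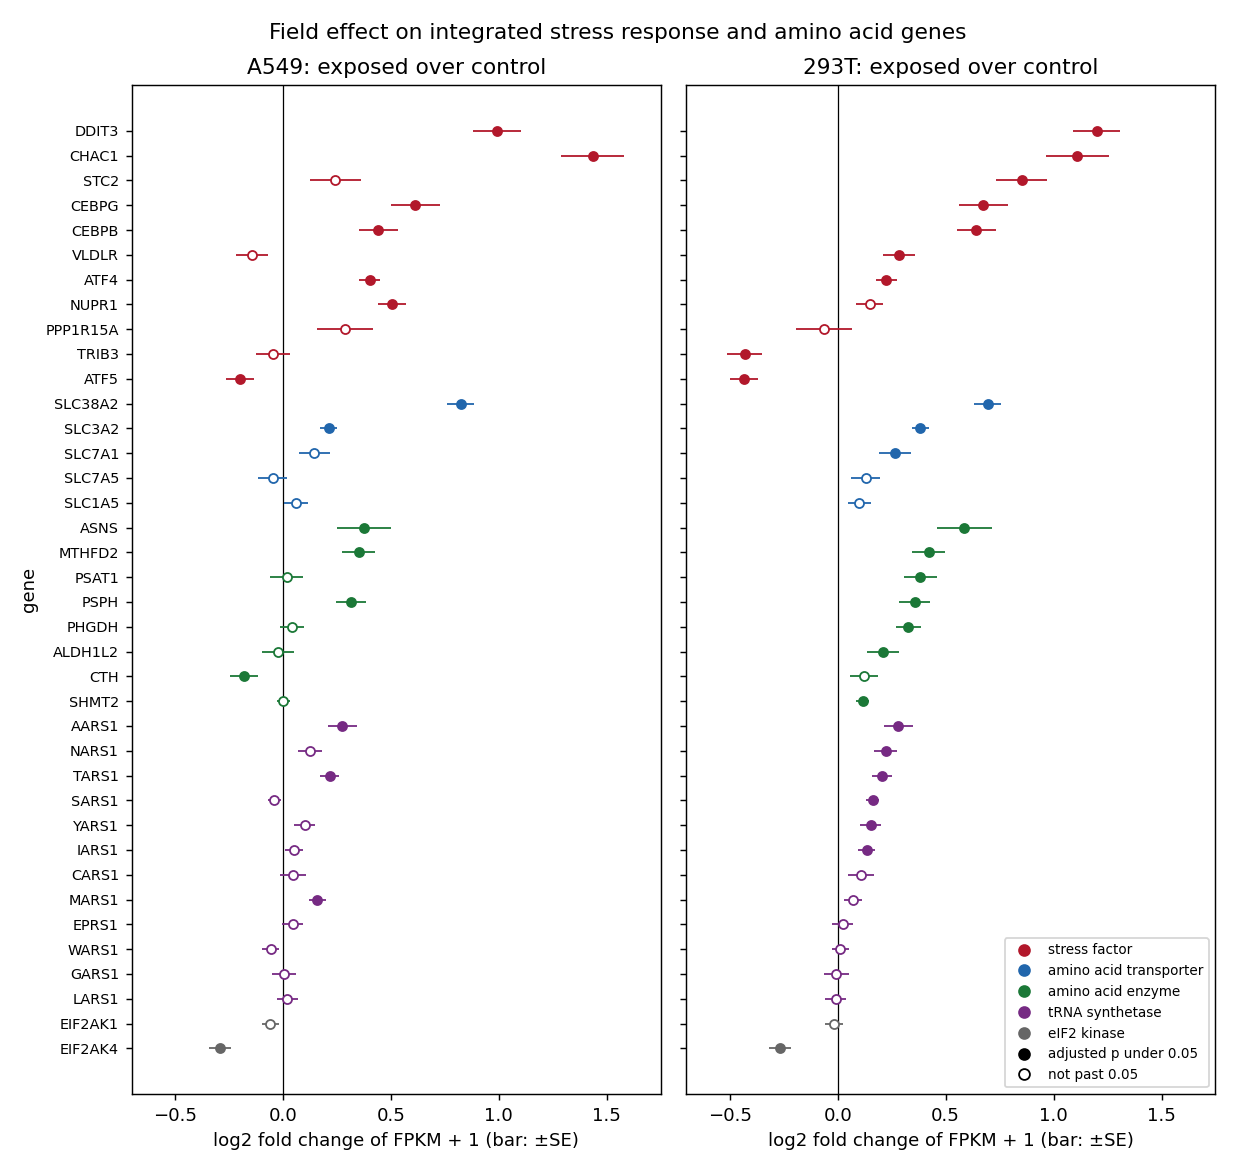
Log2 fold change of FPKM + 1 (x axis, with its SE as a bar) of each of the 38 genes (y axis, coloured by role) for exposed over control cells in A549 (left) and 293T (right), with filled points for an adjusted p under 0.05. DDIT3, CHAC1, CEBPG and SLC38A2 sat above 0.5 in both panels, while ATF5 and EIF2AK4 sat below 0 in both.

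Among the transcription factors, ATF4 and its bZIP partners rose in both lines and ATF5 fell. ATF4 (chr22:39520559-39522686) had 49.4, 43.9 and 42.3 FPKM in exposed A549 libraries, against 33.0, 35.2 and 33.4 FPKM in A549 controls, and 99.2, 96.9 and 93.4 FPKM in exposed 293T libraries, against 83.3, 81.6 and 82.4 FPKM in 293T controls. No exposed library overlapped a control of its line. The rise was 1.33-fold in A549 (log2 fold change 0.40, SE 0.05, adjusted p = 7.01e-05) and 1.17-fold in 293T (0.22, SE 0.05, adjusted p = 0.00385). Behind these values stood 9889 or more counts per library.

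DDIT3, which encodes CHOP, the factor linked to cell death in prolonged stress, had a larger log2 fold change in each line than ATF4, ATF5, CEBPB and CEBPG (chr12:57516588-57520517). It had 49.5, 43.0 and 37.3 FPKM in exposed A549 libraries, against 19.2, 22.7 and 21.6 FPKM in A549 controls, and 19.4, 16.6 and 16.3 FPKM in exposed 293T libraries, against 6.04, 7.09 and 7.99 FPKM in 293T controls. The lowest exposed library thus stood well above the highest control in each line. DDIT3 rose 2.04-fold in A549 (log2 fold change 0.99, SE 0.11, adjusted p = 3.74e-05) and 2.48-fold in 293T (1.20, SE 0.11, adjusted p = 2.99e-05). Its span shares 65 bases with the synthetase gene MARS1, which had 79.7 ± 4.62 FPKM in exposed A549 cells and 71.1 ± 0.489 FPKM in A549 controls (SD, n = 3), and reads in that overlap cannot be told apart where counting ignores strand. DDIT3 also shares 2769 bases with the protein-coding entry LOC128125814, for which no FPKM was found.

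CEBPG, a bZIP protein that dimerizes with ATF4 (chr19:33373709-33382686), had 32.1, 31.4 and 26.9 FPKM in exposed A549 libraries, against 20.9, 18.5 and 18.6 FPKM in A549 controls, and 29.4, 26.6 and 19.7 FPKM in exposed 293T libraries, against 15.1, 15.1 and 15.4 FPKM in 293T controls. Exposed and control libraries did not overlap, although the third exposed 293T library lay closer to the controls than to the first. CEBPG rose 1.56-fold in A549 (log2 fold change 0.61, SE 0.11, adjusted p = 0.00105) and 1.66-fold in 293T (0.68, SE 0.11, adjusted p = 0.000784). CEBPB, a C/EBP factor of inflammation and stress (chr20:50190583-50192690), had 49.2, 42.2 and 39.4 FPKM in exposed A549 libraries, against 32.2, 30.5 and 32.5 FPKM in A549 controls, and 11.8, 10.3 and 8.94 FPKM in exposed 293T libraries, against 5.80, 6.32 and 6.57 FPKM in 293T controls. It rose 1.37-fold in A549 (log2 fold change 0.44, adjusted p = 0.00214) and 1.66-fold in 293T (0.64, adjusted p = 0.000292). Its antisense gene CEBPB-AS1 shares 1487 bases with it and was at 0.130 to 0.716 FPKM over all libraries. ATF5, a relative of ATF4 whose mRNA is also under translational control, went the other way, with 16.3 ± 1.13 FPKM in exposed A549 cells against 18.9 ± 0.297 FPKM in A549 controls, and 7.67 ± 0.778 FPKM in exposed 293T cells against 10.7 ± 0.560 FPKM in 293T controls (SD, n = 3). It fell by 0.20 on the log2 scale in A549 (adjusted p = 0.0264) and by 0.43 in 293T (adjusted p = 0.000378). The A549 call was lost without filter, with median centring, and without exposed A549 replicate 1 or 2 or A549 control replicate 2 or 3 (log2 fold changes of -0.25 to -0.14 over all alternatives). ATF5 shares 599 bases with NUP62, which was at 34.8 to 41.9 FPKM.

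**Figure D2:**
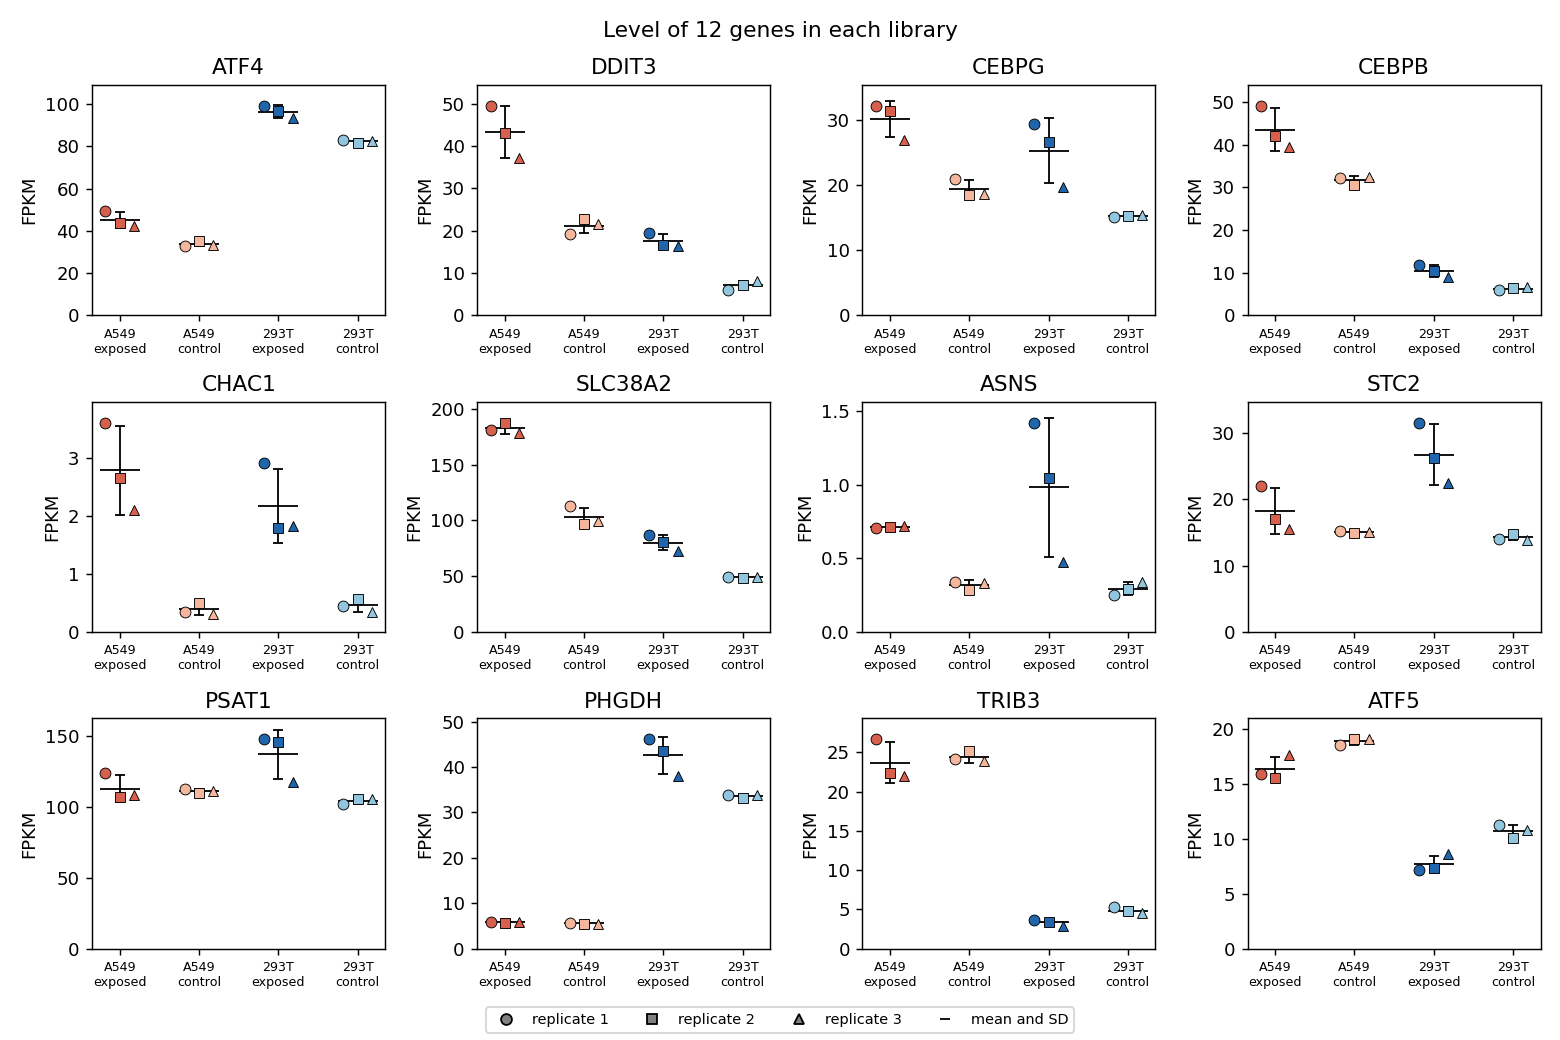
FPKM (y axis, from 0) of 12 genes in each of the 12 libraries, with the exposed group left of its control for A549 and then 293T; symbols are replicates, and the line and bar are the mean and SD of 3 libraries. ATF4, DDIT3, CEBPG, CEBPB, CHAC1 and SLC38A2 were above control in all exposed libraries of both lines, and ATF5 was below control in all of them.

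Of the other stress genes, CHAC1 rose in both lines, while NUPR1, STC2, VLDLR and TRIB3 passed the test in 1 line each. CHAC1, an enzyme that breaks down glutathione (chr15:40953471-40956512), had 3.62, 2.66 and 2.11 FPKM in exposed A549 libraries, against 0.351, 0.496 and 0.314 FPKM in A549 controls, and 2.92, 1.79 and 1.83 FPKM in exposed 293T libraries, against 0.451, 0.574 and 0.344 FPKM in 293T controls. These are low levels, carried by 494 to 848 counts in exposed A549 libraries against 74 to 117 in A549 controls, and by 420 to 659 counts in exposed 293T libraries against 80 to 135 in 293T controls. The ratio of mean FPKM was 7.22 in A549 and 4.77 in 293T. On the log2(FPKM + 1) scale, which understates changes of low genes, the fold change was 1.43 in A549 (SE 0.15, adjusted p = 2.10e-05) and 1.11 in 293T (SE 0.15, adjusted p = 0.000197). With limma-voom on recovered counts it was 2.84 and 2.23.

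NUPR1, a small chromatin-bound stress protein (chr16:28532708-28538974), had 1.04, 1.04 and 0.742 FPKM in exposed A549 libraries, against 0.385, 0.347 and 0.357 FPKM in A549 controls, and 0.413, 0.393 and 0.309 FPKM in exposed 293T libraries, against 0.284, 0.242 and 0.186 FPKM in 293T controls. Neither line showed overlap, and the A549 rise was 2.59-fold (log2 fold change 0.51, adjusted p = 7.73e-05), while the 293T fold change of 0.15 had an adjusted p of 0.0805. With limma-voom on recovered counts the A549 log2 fold change was 1.35. STC2, a secreted glycoprotein (chr5:173314723-173328414), had 22.1, 17 and 15.5 FPKM in exposed A549 libraries, against 15.2, 14.9 and 15.0 FPKM in A549 controls, and 31.6, 26.2 and 22.4 FPKM in exposed 293T libraries, against 14.1, 14.7 and 13.9 FPKM in 293T controls. The exposed A549 libraries ranged widely just above their controls, and the exposed 293T libraries lay far above theirs. STC2 rose 1.88-fold in 293T (log2 fold change 0.85, SE 0.12, adjusted p = 0.000277), and in A549 the log2 fold change was 0.24 (adjusted p = 0.124). VLDLR, a lipoprotein receptor (chr9:2621787-2660056), had 2.03, 1.61 and 1.72 FPKM in exposed A549 libraries, against 2.03, 2.13 and 2.04 FPKM in A549 controls, and 0.896, 1.13 and 0.769 FPKM in exposed 293T libraries, against 0.491, 0.674 and 0.585 FPKM in 293T controls. It rose 1.60-fold in 293T (log2 fold change 0.29, adjusted p = 0.00999, and 0.67 with limma-voom), and its A549 log2 fold change was -0.14 (adjusted p = 0.154).

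TRIB3 and PPP1R15A, which restrain the pathway, did not rise by this test, whereas PPP1R15B, outside the 38 genes and described with the eIF2 core, did. TRIB3, a pseudokinase that binds ATF4 and lowers its activity (chr20:380760-397559), had 26.7, 22.4 and 21.9 FPKM in exposed A549 libraries, against 24.1, 25.2 and 23.9 FPKM in A549 controls, and 3.62, 3.45 and 2.92 FPKM in exposed 293T libraries, against 5.28, 4.74 and 4.48 FPKM in 293T controls. The A549 groups overlapped, and the 293T groups did not. TRIB3 fell by 0.43 on the log2 scale in 293T (SE 0.08, adjusted p = 0.00136), and its A549 log2 fold change was -0.05 (adjusted p = 0.697). PPP1R15A, the phosphatase subunit GADD34, ranged from 71.3 to 117 FPKM in exposed A549 libraries, against 67.9 to 73.3 FPKM in A549 controls, and from 17.5 to 18 FPKM in exposed 293T libraries, against 17.8 to 19.1 FPKM in 293T controls. Its log2 fold change was 0.29 in A549 (adjusted p = 0.0978) and -0.06 in 293T (adjusted p = 0.757). The A549 value rests on 1 exposed library of 117 FPKM, and without exposed A549 replicate 1 the adjusted p was 0.0175.

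Of the 5 transporter genes, 2 (40%) rose in A549 and 3 (60%) in 293T, and none fell. The shares over all genes were 13.3% higher and 26.9% lower in A549, and 13.7% and 24.2% in 293T. For the transporters and each other role or list given with none in a direction, the count was also 0 at an unadjusted p below 0.05 and by limma-voom. SLC38A2, the sodium-coupled carrier of small neutral amino acids known as SNAT2 (chr12:46358188-46372773), had 181, 188 and 178 FPKM in exposed A549 libraries, against 113, 96.4 and 99.7 FPKM in A549 controls, and 86.6, 80.6 and 72.7 FPKM in exposed 293T libraries, against 48.8, 48.4 and 49.4 FPKM in 293T controls. All exposed libraries were well above all controls of their line. SLC38A2 rose 1.77-fold in A549 (log2 fold change 0.82, SE 0.06, adjusted p = 2.79e-06) and 1.64-fold in 293T (0.70, SE 0.06, adjusted p = 2.66e-05). SLC3A2, the heavy chain shared by several amino acid exchangers, was at 272 ± 12.7 FPKM in exposed A549 cells against 234 ± 3.03 FPKM in A549 controls, and at 92.1 ± 4.82 FPKM in exposed 293T cells against 70.4 ± 0.966 FPKM in 293T controls (SD, n = 3). It rose by 0.21 in A549 (adjusted p = 0.00117) and by 0.38 in 293T (adjusted p = 5.44e-05). Quantile normalization took the A549 value to 0.04, with an adjusted p of 0.395. SLC7A1, a carrier of arginine and lysine, rose in 293T (0.27, adjusted p = 0.0128), a call lost without exposed 293T replicate 1 or 2, and had a log2 fold change of 0.15 in A549 (adjusted p = 0.131). SLC7A5, the light chain that pairs with SLC3A2 to import leucine, did not pass in either line (-0.05 in A549 and 0.13 in 293T), and neither did the glutamine carrier SLC1A5 (0.06 in A549 and 0.10 in 293T). The median of the 5 transporters was 0.15 in A549 and 0.27 in 293T.

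The amino acid enzymes showed the widest gap between the lines in counts, with 3 of 8 higher and 1 lower in A549 and 7 of 8 higher and none lower in 293T, although the test of the difference passed for PHGDH and PSAT1 alone. The higher shares, 37.5% in A549 and 87.5% in 293T, stood beside 13.3% and 13.7% of all genes. The lower share in A549, 12.5%, stood beside 26.9% of all genes. The median log2 fold change of the 8 enzymes was 0.03 in A549 and 0.34 in 293T. PHGDH, PSAT1 and PSPH carry out the successive steps of serine synthesis. PHGDH, the first step (chr1:119711934-119744215), had 5.87, 5.60 and 5.81 FPKM in exposed A549 libraries, against 5.71, 5.52 and 5.47 FPKM in A549 controls, and 46.1, 43.6 and 38.0 FPKM in exposed 293T libraries, against 33.7, 33.2 and 33.8 FPKM in 293T controls. Exposed and control libraries overlapped in A549 and were apart in 293T. PHGDH rose 1.27-fold in 293T (log2 fold change 0.33, SE 0.06, adjusted p = 0.000864), with 0.04 in A549 (adjusted p = 0.608). PSAT1, the second step (chr9:78297125-78330093), had 124, 107 and 108 FPKM in exposed A549 libraries, against 113, 110 and 111 FPKM in A549 controls, and 148, 146 and 117 FPKM in exposed 293T libraries, against 102, 105 and 106 FPKM in 293T controls. It rose 1.31-fold in 293T (log2 fold change 0.38, SE 0.08, adjusted p = 0.00218), with 0.02 in A549 (adjusted p = 0.896). PSPH, the last step, rose in both lines, with 16.0 ± 1.54 FPKM in exposed A549 cells against 12.6 ± 0.450 FPKM in A549 controls (log2 fold change 0.32, adjusted p = 0.00404), and 11 ± 1.12 FPKM in exposed 293T cells against 8.34 ± 0.307 FPKM in 293T controls (0.36, adjusted p = 0.00231).

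In the mitochondrial one-carbon pathway, which uses the carbon of serine, MTHFD2 rose in both lines, with 45.0 ± 3.71 FPKM in exposed A549 cells against 35.0 ± 2.40 FPKM in A549 controls (log2 fold change 0.35, adjusted p = 0.00287), and 56.7 ± 5.98 FPKM in exposed 293T cells against 41.9 ± 1.11 FPKM in 293T controls (0.42, adjusted p = 0.00118). SHMT2, which splits serine, rose in 293T by 0.12 (adjusted p = 0.00899), with 0.00 in A549 (adjusted p = 0.986). ALDH1L2, a formyl-tetrahydrofolate dehydrogenase, rose in 293T by 0.21 (adjusted p = 0.0380), with -0.02 in A549; its 293T groups overlapped, and the call was lost under 9 of the alternatives. CTH, which makes cysteine from cystathionine, fell by 0.18 in A549 (adjusted p = 0.0437), a call lost under 15 of the alternatives, and its 293T value was 0.12 (adjusted p = 0.163).

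ASNS, the asparagine synthetase and a standard ATF4 target (chr7:97851677-97928441), was listed at a low level. It had 0.707, 0.712 and 0.721 FPKM in exposed A549 libraries, against 0.342, 0.287 and 0.335 FPKM in A549 controls, and 1.42, 1.04 and 0.478 FPKM in exposed 293T libraries, against 0.251, 0.288 and 0.340 FPKM in 293T controls. The exposed A549 libraries were close together, whereas the exposed 293T libraries were spread over a wide range, all above their controls. These values rest on 87 to 90 counts in exposed A549 libraries against 36 to 43 in A549 controls, and on 60 to 171 counts in exposed 293T libraries against 31 to 42 in 293T controls. The ratio of mean FPKM was 2.22 in A549 and 3.35 in 293T, with log2(FPKM + 1) fold changes of 0.38 (adjusted p = 0.0322) and 0.59 (adjusted p = 0.00352). The A549 call was lost without filter and without any of the 6 A549 libraries. With limma-voom on recovered counts the log2 fold changes were 1.15 in A549 and 1.60 in 293T. ASNS shares 76325 bases with a listed read-through gene, CZ1P-ASNS, which was at 1.06 to 1.66 FPKM, so reads may be split between both entries and the level of ASNS is uncertain.

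Of the 12 cytosolic tRNA synthetases, 3 (25%) rose in A549 and 6 (50%) in 293T, none fell, and the changes were small. The shares over all genes were 13.3% higher and 26.9% lower in A549, and 13.7% and 24.2% in 293T. AARS1, the alanine enzyme, had 99.6 ± 8.45 FPKM in exposed A549 cells against 82.0 ± 2.71 FPKM in A549 controls (log2 fold change 0.27, adjusted p = 0.00608), and 79 ± 7.44 FPKM in exposed 293T cells against 64.7 ± 1.32 FPKM in 293T controls (0.28, adjusted p = 0.00618). TARS1, the threonine enzyme, had 108 ± 7.89 FPKM in exposed A549 cells against 92.5 ± 2.98 FPKM in A549 controls (0.22, adjusted p = 0.00238), and 145 ± 3.70 FPKM in exposed 293T cells against 125 ± 2.50 FPKM in 293T controls (0.21, adjusted p = 0.00401). These were the 2 synthetases that rose in both lines. MARS1, for methionine, rose in A549 by 0.16 (adjusted p = 0.00855), with 0.07 in 293T (adjusted p = 0.207). SARS1, for serine (chr1:109213893-109238182), had 43.2, 42.5 and 43.4 FPKM in exposed A549 libraries, against 44.4, 44.2 and 44.0 FPKM in A549 controls, and 105, 113 and 104 FPKM in exposed 293T libraries, against 96.5, 96.4 and 94.7 FPKM in 293T controls. Its exposed libraries lay just below the controls in A549 and above them in 293T. SARS1 rose 1.12-fold in 293T (log2 fold change 0.16, SE 0.03, adjusted p = 0.00171), with -0.04 in A549 (adjusted p = 0.347).

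NARS1, for asparagine, rose in 293T by 0.22 (adjusted p = 0.00702), IARS1, for isoleucine, by 0.13 (adjusted p = 0.0227) and YARS1, for tyrosine, by 0.15 (adjusted p = 0.0285). The IARS1 call was lost without exposed 293T replicate 2 or 293T control replicate 1 or 3. The YARS1 call was lost without filter, with quantile normalization and without each 293T library but exposed replicate 3, and YARS1 shares 797 bases with S100PBP. The cysteine, glutamate-proline, glycine, leucine and tryptophan enzymes, CARS1, EPRS1, GARS1, LARS1 and WARS1, did not pass in either line, with log2 fold changes from -0.06 to 0.05 in A549 and from -0.01 to 0.11 in 293T. The median of the 12 genes was 0.05 in A549 and 0.12 in 293T. The small A549 medians moved with single libraries. Without exposed A549 replicate 1 the median was 0.0074 for the synthetases, 0.012 for the enzymes and 0.0744 for the transporters, and without exposed A549 replicate 2 it was 0.0887, 0.0571 and 0.179.

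The remaining synthetase genes are given beside the shares over all genes. Of 11 other genes of cytosolic synthetases and their scaffold proteins, none rose and 2 fell in A549, and none rose and 5 fell in 293T, with medians of -0.04 and -0.10. The lower share was 18.2% in A549, under the 26.9% of all genes, and 45.5% in 293T, over the 24.2% of all genes. VARS1, for valine, fell most by p-value, with 27.0 ± 0.489 FPKM in exposed A549 cells against 31.9 ± 0.175 FPKM in A549 controls (log2 fold change -0.23, adjusted p = 5.11e-05), and 45.0 ± 0.0987 FPKM in exposed 293T cells against 55.8 ± 1.07 FPKM in 293T controls (-0.30, adjusted p = 2.66e-05). FARSB, a phenylalanine enzyme subunit, fell by 0.23 in both lines (adjusted p = 0.00651 in A549 and 0.00840 in 293T), and QARS1, for glutamine, fell by 0.14 in 293T (adjusted p = 0.00716). Of 17 mitochondrial synthetases, 2 rose and 5 fell in A549, and 1 rose and 5 fell in 293T. These shares, 11.8% higher and 29.4% lower in A549 and 5.88% higher and 29.4% lower in 293T, are near those of all genes. SARS2 had the smallest adjusted p of them in both lines, with a fall of 0.42 in A549 (adjusted p = 6.09e-05) and of 0.51 in 293T (adjusted p = 4.10e-05). EARS2 rose by 0.30 in A549 (adjusted p = 0.000633). TARS2 fell by 0.18 in A549 (adjusted p = 0.00516) and by 0.24 in 293T (adjusted p = 0.00102), and PARS2 rose by 0.33 in 293T (adjusted p = 0.00143).

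**Figure D3:**
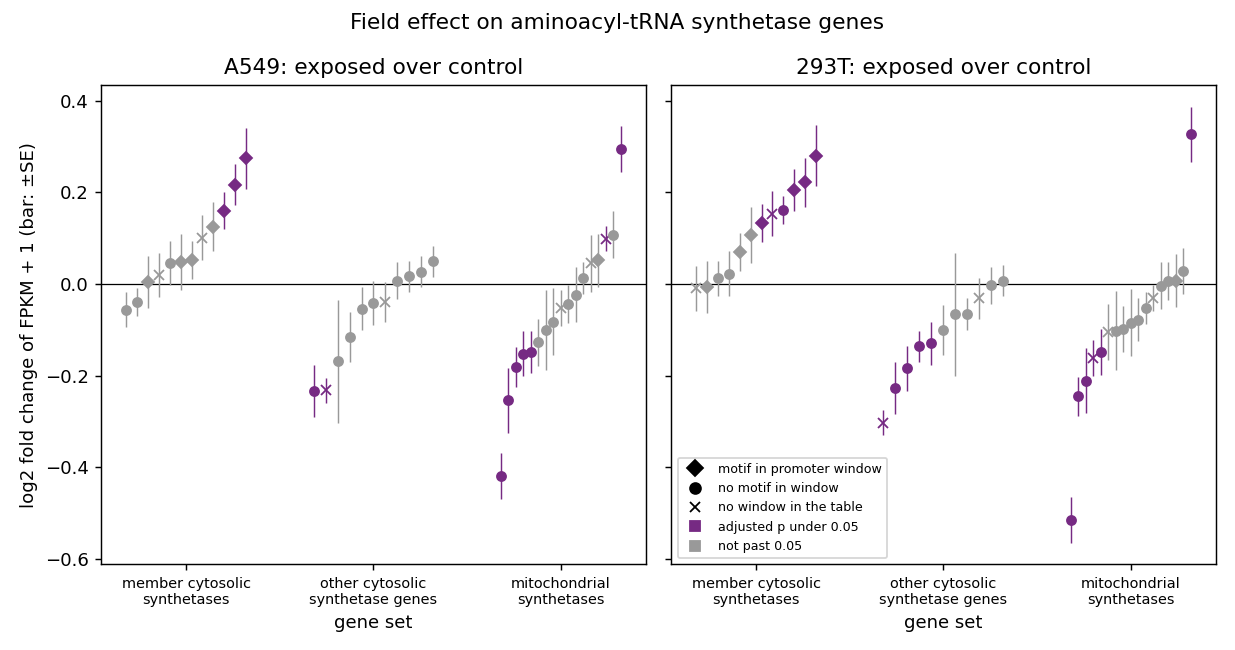
Log2 fold change of FPKM + 1 (y axis, with its SE as a bar) for exposed over control cells in A549 (left) and 293T (right), for the 12 cytosolic tRNA synthetases described, 11 other cytosolic synthetase genes and 17 mitochondrial synthetases, each set sorted by its value. Coloured points passed an adjusted p of 0.05, and diamonds mark a TGATGNAA motif in the promoter window; coloured points of the first set lie above 0, and those of the second lie below it.

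The composite motif was looked up in all these synthetase genes. It was in 7 of the 10 described genes with a window (AARS1, CARS1, GARS1, IARS1, MARS1, NARS1 and TARS1), in 0 of the 9 other cytosolic synthetase genes and in 1 of the 14 mitochondrial ones with a window. The described synthetases were picked as genes of the integrated stress response, so this contrast is a description of the lists. Of the 7 genes with the motif, 3 rose in A549 and 4 in 293T, and CARS1 and GARS1, whose sites are printed above, passed in neither line. SARS1 rose in 293T without the motif in a window. Over all 38 genes, 7 of the 13 with the motif rose in A549 and 9 in 293T, with median log2 fold changes of 0.16 and 0.22. Of the 18 with a window but no motif, 5 rose in A549 and 10 in 293T, with medians of 0.03 and 0.19. Among all genes tested, 13.3% rose in A549 and 13.7% in 293T. The 13 include CHAC1 and ASNS, which entered the test through their exposed libraries; without them, 5 of 11 rose in A549 and 7 of 11 in 293T, with medians of 0.15 and 0.21, and the difference from the 18 was not tested. ATF4, DDIT3, SLC38A2, PSAT1 and PHGDH are among those 18. A match is a description of letters and not of binding, and the further 7 genes had no listed window.

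Among the eIF2 kinases, EIF2AK4, the sensor of uncharged tRNA known as GCN2, fell in both lines, with 7.28 ± 0.226 FPKM in exposed A549 cells against 9.12 ± 0.211 FPKM in A549 controls (log2 fold change -0.29, adjusted p = 0.000711), and 11.3 ± 0.826 FPKM in exposed 293T cells against 13.8 ± 0.588 FPKM in 293T controls (-0.27, adjusted p = 0.00159). EIF2AK1, the heme-regulated kinase, did not pass (-0.06 in A549 and -0.02 in 293T), and it shares 1588 bases with AIMP2. Of 14 further genes of the eIF2 core, 5 rose and 3 fell in A549, and 2 rose and 4 fell in 293T. The higher share in A549, 35.7%, was above the 13.3% of all genes, while the lower share there (21.4%) and both shares in 293T (14.3% higher and 28.6% lower) were near those of all genes. EIF2AK3, the endoplasmic reticulum kinase PERK, rose in both, with 10.7 ± 1.51 FPKM in exposed A549 cells against 5.85 ± 0.210 FPKM in A549 controls (0.76, adjusted p = 4.71e-05), and 8.87 ± 0.983 FPKM in exposed 293T cells against 5.15 ± 0.184 FPKM in 293T controls (0.68, adjusted p = 0.000174). PPP1R15B, the constitutive phosphatase subunit, rose by 0.16 in A549 (adjusted p = 0.0270) and by 0.35 in 293T (adjusted p = 0.000381). EIF2S2, the beta subunit of eIF2, rose by 0.21 in A549 (adjusted p = 0.000269), and EIF2AK2, the RNA-activated kinase PKR, rose by 0.28 there (adjusted p = 0.000635). Among the genes that fell, EIF2A had a log2 fold change of -0.18 in 293T (adjusted p = 0.00324). DELE1 fell in both lines, with -0.16 in A549 (adjusted p = 0.0361) and -0.21 in 293T (adjusted p = 0.00967).

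Of 16 further genes listed as targets of ATF4 or CHOP, 15 could be tested, and FGF21 was too low. This list leaves out genes of amino acid transport and metabolism, which are given after it whether or not ATF4 acts on them. Of the 15, 8 rose and 2 fell in A549, and 12 rose and none fell in 293T. The higher shares were thus 53.3% and 80.0%, beside 13.3% and 13.7% of all genes. That list was drawn up with earlier results of these data known, so the shares are a description. They hold for the list as split here, and none of the 19 amino acid genes given after it rose in A549. HERPUD1, an endoplasmic reticulum protein of protein disposal, rose 7.13-fold in A549 (adjusted p = 9.44e-06) and 5.29-fold in 293T (adjusted p = 6.33e-05). GDF15, a stress hormone, had 40.1 ± 1.74 FPKM in exposed A549 cells against 25.1 ± 0.518 FPKM in A549 controls (log2 fold change 0.66, adjusted p = 1.08e-05). In 293T, DDIT4, an inhibitor of mTORC1 signalling, rose 4.40-fold (adjusted p = 7.52e-06), ATF3, a bZIP factor downstream of ATF4, rose 3.02-fold (adjusted p = 4.91e-05), and SQSTM1, an autophagy receptor, rose 1.35-fold (adjusted p = 2.99e-05). Of 19 further genes of amino acid transport and metabolism, none rose and 7 fell in A549, and 5 rose and 2 fell in 293T. The lower share in A549 was 36.8%, beside 26.9% of all genes, and the 293T shares were 26.3% higher and 10.5% lower, beside 13.7% and 24.2%. SLC1A4, a neutral amino acid carrier, rose by 0.64 in 293T (adjusted p = 0.000623), and SHMT1, the cytosolic counterpart of SHMT2, fell by 0.35 in A549 (adjusted p = 0.00512) and by 0.43 in 293T (adjusted p = 0.00182). In A549, CBS, which makes cystathionine, fell by 0.32 (adjusted p = 0.00618) at a mean of 0.584 FPKM in exposed cells and 0.980 FPKM in controls, and MTHFD1L, a mitochondrial one-carbon enzyme, fell by 0.20 (adjusted p = 0.00713).

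The field effect was then compared between the lines. Of the 38 genes, 2 (5.26%) had a higher effect in A549 than in 293T and 5 (13.2%) a lower one. Over all genes these shares were 5.51% and 7.03% (12.5% in either direction). The difference of the log2 fold changes, A549 minus 293T, was 0.38 for TRIB3 (adjusted p = 0.0424) and 0.36 for NUPR1 (adjusted p = 0.0211). NUPR1 entered the test through its exposed A549 libraries, the group where it is high, and without CHAC1, NUPR1 and ASNS the count was 1 higher and 5 lower of 35. The difference was -0.61 for STC2 (adjusted p = 0.0340), -0.43 for VLDLR (adjusted p = 0.0205), -0.37 for PSAT1 (adjusted p = 0.0440), -0.29 for PHGDH (adjusted p = 0.0339) and -0.20 for SARS1 (adjusted p = 0.0116). The 5 lower ones include the serine synthesis genes PHGDH and PSAT1 and the serine synthetase SARS1. The calls of PHGDH and PSAT1 were lost under most alternatives, and PSPH differed by -0.04 (adjusted p = 0.834). Of the factors, the difference did not pass for ATF4 (0.18, SE 0.07, adjusted p = 0.116), DDIT3 (-0.21, SE 0.15, adjusted p = 0.424) or CEBPG (-0.06, SE 0.16, adjusted p = 0.845), and these misses do not show that the effects were equal. SARS1 kept its call under every alternative run. Of 23 alternatives, PSAT1 lost its call under 15, PHGDH under 14, STC2 under 11, TRIB3 under 10 and VLDLR under 2, and NUPR1 lost its call under 5 of 22. Leaving out any 1 of the 12 libraries moved one of these counts by over 1.5 times, to between 0 and 3 higher and between 1 and 10 lower, with 10 lower without exposed 293T replicate 3. With median centring the split was 2 higher and 3 lower.

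Among the genes that rose, the exposed libraries of a group were not at even levels, an order that was not counted over all genes. Of the 23 genes that rose in 293T, the third exposed library was the lowest of its group in 22, and the first was the highest in 14 and the second in 9. The median log2 rise of these genes over the control mean was 0.37, 0.37 and 0.18 in the 3 exposed 293T libraries. Of the 14 genes that rose in A549, the first exposed library was the highest in 10 and the third the lowest in 11, with medians of 0.51, 0.37 and 0.31. With the third library of both exposed groups left out, 17 genes were higher and 2 lower in A549, 28 were higher and 3 lower in 293T, and the effect in A549 was higher than in 293T in 3 genes and lower in 9. Over all genes, 1891 were higher and 3518 lower in 293T without exposed 293T replicate 3. These counts were 1454 and 2629 without replicate 1, and 1447 and 2500 without replicate 2. In A549 they were 1700 and 3612 without exposed A549 replicate 3, 1518 and 2999 without replicate 1, and 1586 and 3092 without replicate 2. The recovered totals of the third exposed libraries, 38583675 counts in A549 and 38804924 in 293T, were the highest of their exposed groups, with all 12 totals within 1.046 times of each other. The part of other library properties in this spread was not tested.

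**Figure D4:**
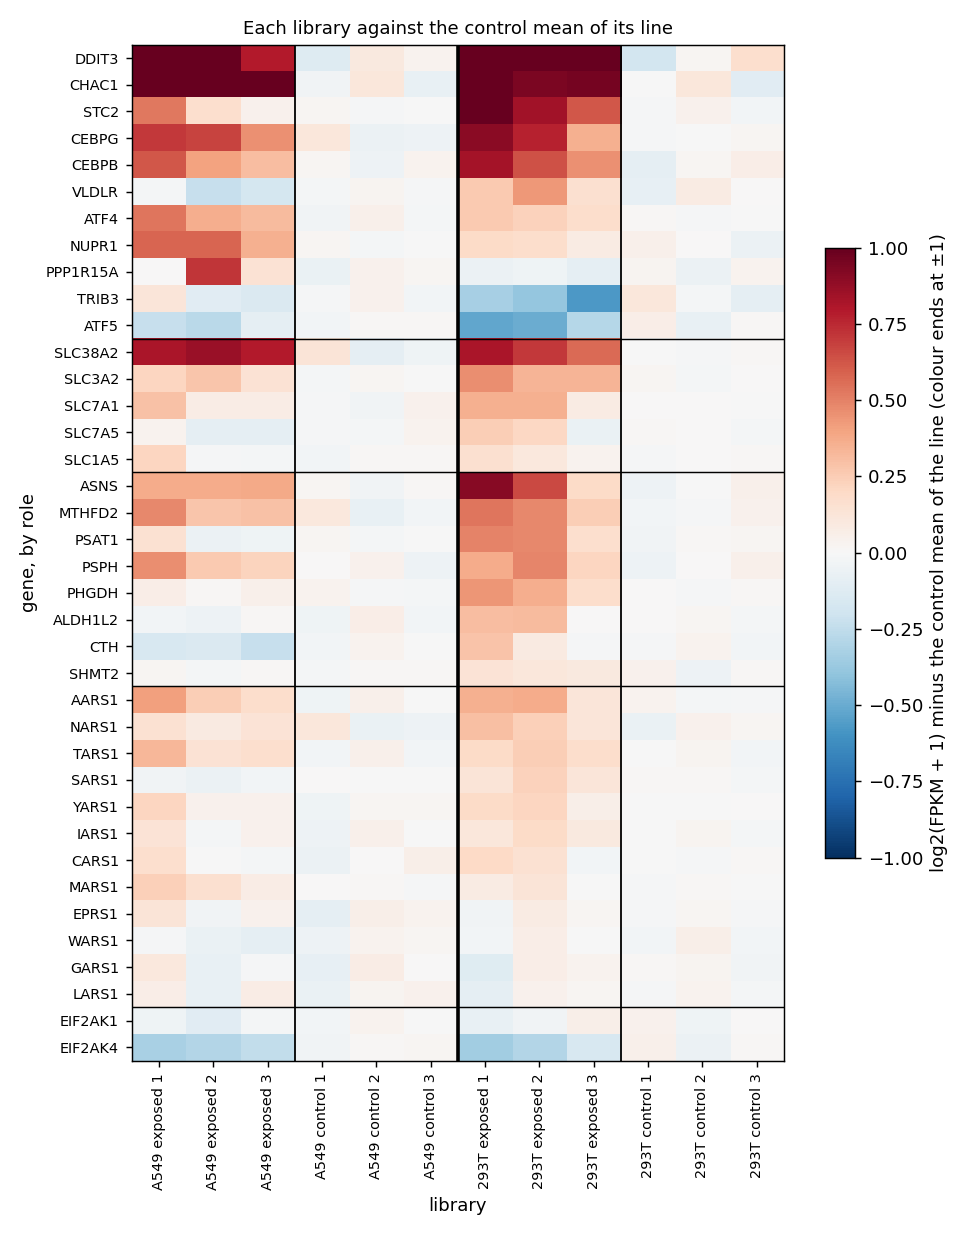
Log2(FPKM + 1) of each of the 38 genes (rows, by role) in each of the 12 libraries (columns), minus the control mean of the line; red is above and blue below the control mean, and the colour scale ends at 1 in either direction. DDIT3, CHAC1 and SLC38A2 are red in all 6 exposed libraries, and the third exposed 293T column is paler than the first 2 for most genes that rose.

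Unexposed cells of the 2 lines differed in most of these genes, as in most genes. Of the 38, 16 were higher and 15 lower in A549 controls than in 293T controls, against 32.4% and 55.9% of all genes (88.3% in either direction). The median over all genes was -0.25, and it was -0.41 after rescaling to TPM, -0.15 after quantile normalization and -0.16 after median centring, so these differences are relative to a shift that depends on the scaling. Levels here are FPKM, per gene length. PHGDH was at 5.57 ± 0.128 FPKM in A549 controls and 33.6 ± 0.305 FPKM in 293T controls (log2 difference -2.40), CTH at 0.844 ± 0.0394 and 3.49 ± 0.103 FPKM (-1.28), ALDH1L2 at 0.925 ± 0.0760 and 3.08 ± 0.0484 FPKM (-1.08) and ATF4 at 33.9 ± 1.17 and 82.4 ± 0.816 FPKM (-1.26), in the same order of lines (SD, n = 3). The reverse held for SLC7A5, at 246 ± 4.94 FPKM in A549 controls and 48.4 ± 0.653 FPKM in 293T controls (log2 difference 2.32), for CEBPB, 5.09-fold higher in A549, for TRIB3, 5.05-fold higher, and for DDIT3, 3.01-fold higher. Among the synthetases, 7 of 12 were lower in A549 controls, led by YARS1 (-1.26) and SARS1 (-1.10), and 3 were higher. CHAC1, STC2, ASNS, PSAT1 and GARS1 did not pass, with log2 differences of -0.08 to 0.09, nor did NUPR1 (0.14, adjusted p = 0.0502) and WARS1 (-0.02).

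**Figure D5:**
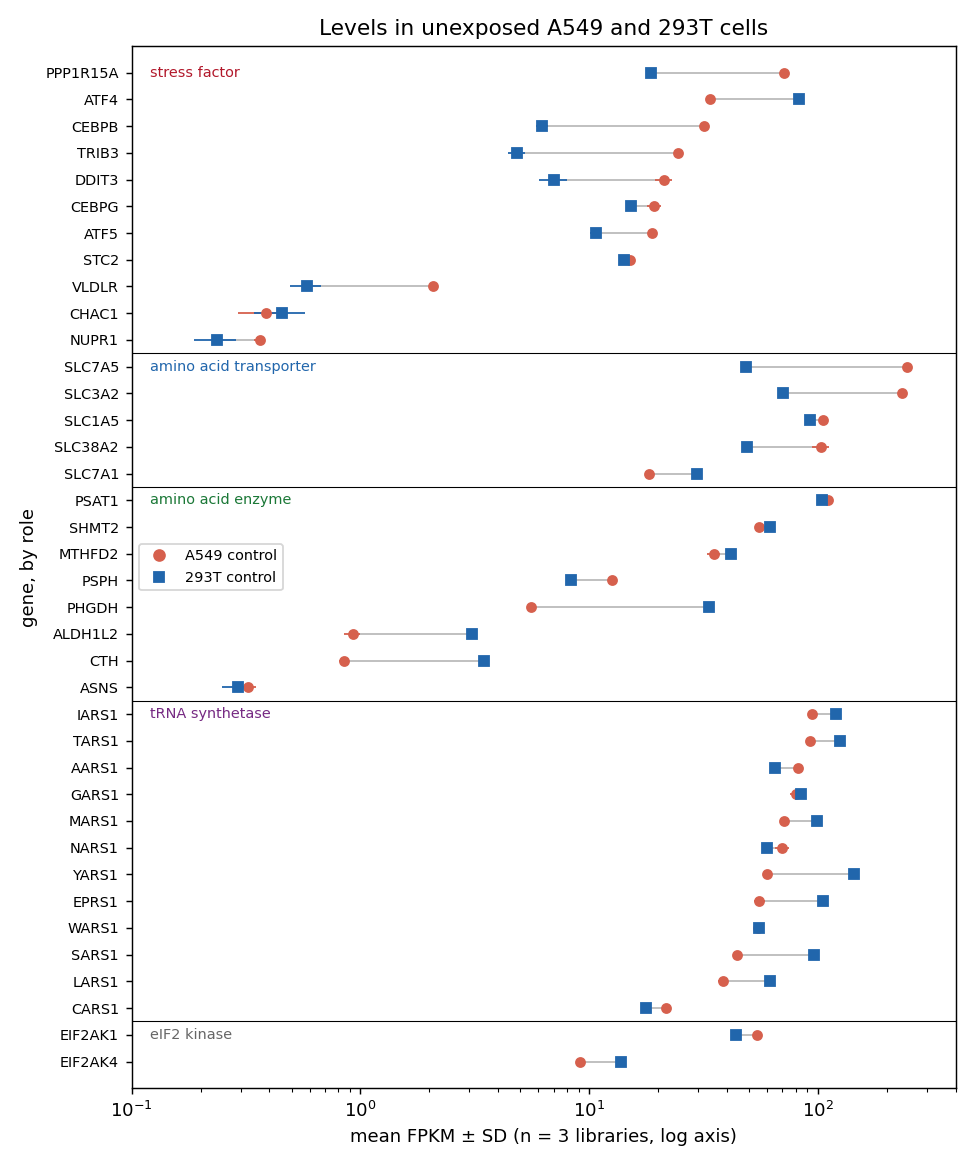
Mean FPKM with SD of 3 libraries (x axis, log scale) of each of the 38 genes (y axis, by role) in A549 controls (circles) and 293T controls (squares), joined by a grey line. SLC7A5, SLC3A2, CEBPB and TRIB3 lie far higher in A549 controls, and PHGDH, CTH and ALDH1L2 far lower, while CHAC1, NUPR1 and ASNS lie below 1 FPKM in both lines.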

How the data were processed

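Per the labels' protocols, TRIzol RNA was treated with DNase, poly(A) RNA was selected with oligo(dT) beads, and random-primed cDNA was sequenced in pairs. The tools named in the submitters' processing notes are fastp, HISAT2 and HTSeq, with the build GRCh38; the sources used here do not give their versions and settings or whether counting used strand. The deposited table holds the authors' FPKM values (fragment counts scaled by gene length and library total) for 26348 genes in 12 libraries, and no pair of libraries was identical. Whole counts were recovered from the FPKM steps for 100% of the genes within 0.01 counts and gave the depth and 1 alternative.

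The 38 genes and the gene lists were chosen with earlier results of these data known. Genes with at least 0.5 FPKM in at least 3 libraries were kept (13811 kept, 12537 removed). A single model of log2(FPKM + 1) over the 12 libraries, with group means and a variance trend on intensity (8 residual degrees of freedom), was used in limma 3.58.1 under R 4.3.3. Tests were two-sided, with Benjamini-Hochberg adjustment over all genes and a threshold of 0.05, and every adjusted p is from this fit unless another setting is named. Folds are ratios of mean FPKM. The script was tested on simulated data. Values of every library are given for ATF4, for genes past the threshold in a line with a log2 fold change of at least 0.5 either way and no overlap between groups, and for genes past it in the difference between the lines. From each further list, the 2 to 4 genes with the smallest adjusted p in each line and a mean of at least 1 FPKM are named; HERPUD1, DDIT4, ATF3 and SQSTM1 are among them. Of the lists' genes, 1 is counted in its list and not otherwise reported here. All 38 genes matched RefSeq (GRCh38.p14) identifiers, as did 25419 of all genes. Summaries used pandas 2.3.3 and numpy 2.4.6 in Python 3.11.15. Alternatives were TPM, quantile normalization, median centring, rescaling without mitochondrially encoded genes, a pseudocount of 0.1, a stricter filter (mean FPKM of at least 1), no filter, no intensity trend, separate fits per line, a block on replicate number, limma-voom on recovered counts (1858 higher and 3670 lower in A549, 1959 and 3316 in 293T), each library left out, and replicate 3 of both exposed groups left out.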

Additional observations from a re-analysis of the deposited data

Results flagged for a closer look

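The field effect of 17 genes given here differed between A549 and 293T by the test of the difference itself (limma, adjusted p below 0.05 over all genes). The values are the log2 fold change in A549 minus that in 293T. Of the 38 genes, the difference was 0.38 for TRIB3, 0.36 for NUPR1, -0.61 for STC2, -0.43 for VLDLR, -0.29 for PHGDH, -0.37 for PSAT1 and -0.20 for SARS1. Except for SARS1 these calls were lost under some alternatives, from 2 of them for VLDLR to 15 for PSAT1. NUPR1 entered the test through its exposed A549 libraries, the group where it is high. Its call was lost with a pseudocount of 0.1 and with limma-voom, among others.

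Of the further targets of ATF4 or CHOP, the difference was -1.63 for ATF3, which rose by 1.5 in 293T and was at -0.13 in A549 (adjusted p = 0.567). For DDIT4, which rose in both lines, it was -1.47. It was -0.41 for EIF4EBP1, an inhibitor of translation initiation, -0.30 for VEGFA, the angiogenic growth factor, and -0.38 for SQSTM1.

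A cystine carrier and a glycine carrier had opposite changes in the lines. SLC7A11, the cystine-glutamate exchanger, had 31.6, 31.8 and 36.5 FPKM in exposed A549 libraries, against 60.0, 40.7 and 44.9 FPKM in A549 controls, and 5.80, 5.30 and 3.17 FPKM in exposed 293T libraries, against 2.90, 2.67 and 3.15 FPKM in 293T controls. It fell by 0.51 in A549 (adjusted p = 0.0274) and rose by 0.53 in 293T (adjusted p = 0.0257), a difference of -1.04. SLC6A9, a glycine carrier, fell by 0.41 in A549 (adjusted p = 0.0287) and rose by 0.61 in 293T (adjusted p = 0.00419), a difference of -1.02. In both genes exposed and control libraries did not overlap in either line, and the third exposed 293T library lay closest to its controls. For SLC7A11 it was nearly level with the highest 293T control, at 3.17 against 3.15 FPKM. The first A549 control of SLC7A11, at 60.0 FPKM, stood apart from the others, at 40.7 and 44.9 FPKM.

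Among the other pathway genes, the difference was 0.22 for EIF2S2, 0.27 for the mitochondrial glutamate synthetase EARS2 and -0.35 for the mitochondrial proline synthetase PARS2.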

How the results depend on the processing

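Over 24 alternatives, 3564 values of single genes among the 38 were compared with the reported ones. Genes of the further lists were not part of this comparison. Of the values compared, 115 lost a call, 59 gained one and 1 reversed: WARS1 in the controls, at -0.02 as reported, was 0.11 with quantile normalization. Of the 38 genes' calls, 13 of 17 in A549, 22 of 26 in 293T, 26 of 31 between controls and 1 of 7 for the difference between lines held under every alternative that gave a value. The A549 count of 14 higher ranged from 13 to 15 and the 293T count of 23 from 19 to 26 as single libraries were left out; 3 lower in A549 became 1 with no filter, with median centring and at the lowest of 1 to 3 without single libraries. Genes with a higher effect in A549, 2 as reported, numbered 1 with limma-voom, a pseudocount of 0.1, the stricter filter (mean FPKM of at least 1) or no filter, and 0 to 3 without single libraries. Genes with a lower effect, 5 as reported, numbered 1 with no filter, 3 with median centring, 9 without replicate 3 of both exposed groups, and 1 to 10 without single libraries. The stress factor median in 293T, 0.29 as reported, was 0.59 with a pseudocount of 0.1, 0.46 with the stricter filter, 0.45 with TPM and 0.67 with limma-voom, and the transporter median in A549, 0.15, was 0.0434 with quantile normalization. The cause of these shifts was not tested. Same-numbered exposed and control libraries had correlations of -0.23 to 0.02 of their deviations from the group means. The main fit has no block on the number. With 3 libraries per group, such values cannot exclude a culture or day shared by number. Between the lines the correlation was 0.33 for the exposed libraries numbered 3 and -0.31 to 0.06 for the other same-numbered exposed or control libraries. In the fit with the replicate block, 14 genes were higher and 3 lower in A549, 24 and 3 in 293T, 2 and 5 for the difference and 17 and 15 between controls. NUPR1 and ASNS have no value with the stricter filter, and each line fitted alone gives none for the difference or the controls. Depth limits CHAC1, NUPR1 and ASNS, which rest on as few as 74, 38 and 31 counts in a control library.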
